A study of Mus musculus with 12 samples.

Results

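Adenomas of Apcmin mice in which Notch signalling had been switched on were compared with adenomas in which it had been blocked. These are 4 of the 12 bead arrays of the series, 2 arrays for each of the 2 tumour groups, chosen by their labels and read across all genes. Notch-activated tumours came from mice of the genotype Vil-Cre;RosaN1+/RN1, in which the Villin-Cre recombinase of the gut epithelium switches on an active Notch1 transgene placed at the Rosa26 locus. Notch-inactivated tumours came from Vil-Cre;Mib1f/f mice, in which the same recombinase deletes Mib1, a ubiquitin ligase that cells presenting Notch ligands need. Tumours of wild type (wt) mice, with 2 arrays, served to show where unaltered Notch signalling lies between the other groups, and normal tissue of the same 3 genotypes (2 arrays each) showed whether a difference was also present outside tumours. Every mouse of the series, wild type included, carried the Apcmin mutation, which leaves the epithelium with 1 intact copy of the Wnt pathway inhibitor Apc. Villin-Cre acts in epithelial cells, so stromal and immune cells of these tumours keep their own Mib1 and carry no active transgene. The labels name neither the age of the mice nor the gut segment, and do not say if both arrays of a pair come from different animals. The p-values therefore measure only how far the arrays of a pair differ, and that spread may be technical.

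Notch receptors are cut after they bind a ligand on a neighbouring cell, and the freed part of the receptor enters the nucleus and acts with the DNA-binding protein Rbpj. In the intestinal crypt this signal keeps progenitors from becoming secretory cells (Paneth, goblet, enteroendocrine and tuft cells) and favours the absorptive lineage. Wnt signalling, which loss of Apc turns on in adenomas, maintains crypt stem cells and also promotes the Paneth cell program. The study asks how Notch bears on the progression of these tumours, and the Notch groups are its gain and loss of the signal.

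The labels were checked first on the transgene and its reporter. The array's probe for eGFP, the reporter expressed with the transgene, had log2 signals of 9.50 and 9.73 in Notch-activated tumours, against 5.12 and 5.16 in Notch-inactivated tumours and 5.27 and 5.48 in wild type tumours. The IRES probe behaved likewise, with 7.39 and 7.71 in Notch-activated tumours, against 5.48 and 5.57 in Notch-inactivated and 5.48 and 5.57 in wild type tumours. On both probes the Notch-activated tumours lay above every other tumour array. Notch-activated normal tissue was at least as bright, with eGFP at 9.76 and 10.20, and both other genotypes were at background in normal tissue too. The array's probes for GFP and Cre did not tell the groups apart. In Notch-activated tumours GFP had 5.43 and 5.31 and Cre 5.25 and 5.10, and both probes lay at background on all 12 arrays. Mib1 had signals of 6.83 and 6.80 in Notch-activated tumours, against 6.19 and 6.27 in Notch-inactivated and 6.73 and 6.77 in wild type tumours. The tumours with the deletion lay below the other 4 arrays: Mib1 was 0.59 higher in Notch-activated than in Notch-inactivated tumours (SE 0.10, adjusted p = 0.00275), with wild type close to the activated end. The position of this probe on the transcript is not known here, so it may lie outside the deleted part. Apc itself was at 6.76 and 6.81 in Notch-activated tumours, against 6.57 and 6.62 in Notch-inactivated tumours (adjusted p = 0.234).

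The Notch groups of tumours differed widely. A feature is a named gene, read by its brightest probe, or a single probe without a name. It is called here at an adjusted p under 0.05 in limma, fitted over all 21457 features and 12 arrays with Benjamini-Hochberg adjustment. All values are log2 signals, on which a difference of 1 is a doubling, and every difference is the mean of the 2 arrays of one group minus that of the other. In Notch-activated against Notch-inactivated tumours 4949 features were called (23.1%), of which 2465 were higher (11.5%) and 2484 lower (11.6%). The difference was at least 1 log2 unit in 699 of the higher and in 750 of the lower features. Among the 5011 named genes 1345 were called (26.8%), 676 of them higher (13.5%) and 669 lower (13.4%), and the counts of list members below are read against these shares. The count of called features fell to 2903 without replicate 2 of the Notch-inactivated tumours and to 3059 without replicate 1 of the Notch-activated tumours. Across features the arrays of the Notch-activated pair correlated at r = 0.991 and those of the Notch-inactivated pair at 0.986, while arrays of different Notch groups correlated at 0.925 to 0.938. The share of probes above background was 38.1% and 38.3% in Notch-activated tumours, against 42.6% and 41.6% in Notch-inactivated and 40.9% and 43.1% in wild type tumours, and its part in the differences was not tested. Of the lower features, 523 lay at background on both Notch-activated arrays, and of the higher ones 137 lay at background on both Notch-inactivated arrays. For such a probe the fold is a bound ("at least N-fold"), taken against the background limit of the dim arrays or the probe's own signal where that was higher.

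Paneth cell genes were nearly silent in Notch-activated tumours and strongly expressed in Notch-inactivated ones. Of 10 measured genes of the list, 8 fell and 0 rose, with a median difference of -4.04 over the 10, against 0.02 over all features. Paneth cells sit at the base of small intestinal crypts and secrete antimicrobial peptides. Lyz1, the lysozyme of their granules, had 5.70 and 7.56 in Notch-activated tumours, against 13.09 and 12.43 in Notch-inactivated and 12.85 and 12.66 in wild type tumours (difference -6.13, SE 0.51, adjusted p = 3.51e-05). The Notch-activated arrays differed from each other by more than those of either other group, and both lay far below every other tumour array. Defa5, an alpha-defensin, had 5.20 and 5.59 in Notch-activated tumours, against 12.27 and 11.08 in Notch-inactivated and 11.67 and 11.81 in wild type tumours. Both Notch-activated arrays were at background, so Defa5 was at least 61.3-fold lower there (adjusted p = 1.52e-05). Defa25 had 5.74 and 6.25 in Notch-activated tumours, against 12.85 and 11.77 in Notch-inactivated tumours (difference -6.31, SE 0.65, adjusted p = 1.16e-04). Defa21 had 5.38 and 5.52 in Notch-activated tumours, against 9.80 and 10.25 in Notch-inactivated tumours, and was at least 19.5-fold lower. Defa17 (-4.64), Defa20 (-3.22), Defa3 (-2.89) and Habp2 (-3.50), a serine protease that binds hyaluronan, also fell, of which Defa3 lost its call without replicate 1 of either Notch group. Alpha-defensins have near-identical sequences, so a probe may read more than 1 of them. The remaining members, Ang4 (0.19, adjusted p = 0.906) and Mptx1 (-2.22, adjusted p = 0.189), were not called. With any of the 4 arrays left out, 7 or 8 of the 10 genes were still called lower. Because whole tissue was measured, fewer cells of a type and less RNA per cell cannot be told apart.

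The DNA in front of some genes with large differences, though not the largest in each case, is given for a reader to see. The promoter windows are of a lysozyme, a defensin and a Wnt-induced transcription factor that fell and of a keratin that rose. They run from 250 bases before to 50 after the RefSeq start (GRCm38.p6), on the gene's own strand. They lie at chr10:117292819-117293118 (- strand) for Lyz1, chr8:21025295-21025594 (+ strand) for Defa21, chr1:190169466-190169765 (- strand) for Prox1 and chr11:100121517-100121816 (- strand) for Krt13. Capitals mark, on either strand, the core CTTTGA or CTTTGT that Tcf/Lef factors of the Wnt pathway bind (first 3 sequences) or the core TGGGAA that Rbpj binds (last sequence). The Rbpj core also occurs, unmarked, in the windows of Defa21 and Prox1, which fell.
Lyz1: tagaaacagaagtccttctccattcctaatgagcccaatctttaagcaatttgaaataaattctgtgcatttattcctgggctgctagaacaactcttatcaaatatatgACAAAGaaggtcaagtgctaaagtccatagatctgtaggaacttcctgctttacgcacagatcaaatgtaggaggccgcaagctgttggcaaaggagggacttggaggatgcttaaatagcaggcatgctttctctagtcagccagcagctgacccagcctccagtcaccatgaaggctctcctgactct
Defa21: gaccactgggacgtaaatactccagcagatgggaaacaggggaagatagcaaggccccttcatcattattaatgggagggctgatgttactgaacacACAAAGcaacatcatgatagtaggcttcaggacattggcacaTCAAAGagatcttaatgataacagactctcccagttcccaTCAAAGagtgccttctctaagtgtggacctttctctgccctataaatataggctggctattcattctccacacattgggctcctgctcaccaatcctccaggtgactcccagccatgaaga
Prox1: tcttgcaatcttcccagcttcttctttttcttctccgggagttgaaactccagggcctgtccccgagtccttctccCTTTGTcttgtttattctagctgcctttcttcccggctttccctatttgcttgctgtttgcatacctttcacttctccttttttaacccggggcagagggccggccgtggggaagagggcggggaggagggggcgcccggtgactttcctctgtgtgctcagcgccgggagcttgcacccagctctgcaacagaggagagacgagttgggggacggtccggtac
Krt13: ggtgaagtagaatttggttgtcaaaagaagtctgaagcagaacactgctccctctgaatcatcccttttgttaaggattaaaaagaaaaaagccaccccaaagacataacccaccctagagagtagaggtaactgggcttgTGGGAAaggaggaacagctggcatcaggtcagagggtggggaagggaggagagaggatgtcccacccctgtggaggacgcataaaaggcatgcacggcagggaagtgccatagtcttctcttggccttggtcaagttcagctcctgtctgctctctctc
The Tcf/Lef core occurred in 34.5% of the 27025 promoters of the table. It was present in 34.8% of the 531 lower genes with a promoter there, in 26.6% of the 522 higher ones and in 28.0% of the 3985 named genes tested. Of the called Wnt genes 1 of 8, Prox1, had it, and of the called Paneth genes 3 of 4. For the Rbpj core the shares were 28.3% of all promoters, 29.8% of lower and 27.2% of higher genes and 25.9% of the named genes tested. A match describes these letters in this window and nothing more.

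The other secretory lineages were measured by fewer genes. Of 6 goblet cell genes, 3 fell and 0 rose (median -3.08). Slc12a8, a member of the cation-chloride cotransporter family, had 5.98 and 5.52 in Notch-activated tumours, against 9.88 and 9.60 in Notch-inactivated and 8.28 and 8.80 in wild type tumours (difference -3.99, SE 0.24, adjusted p = 6.48e-06). Bcas1 followed, with 5.95 and 5.64 in Notch-activated tumours, against 9.62 and 9.71 in Notch-inactivated tumours (difference -3.87, SE 0.34). In both genes no array of one Notch group reached the other. Clca1, which goblet cells secrete into mucus, had 6.75 and 5.81 in Notch-activated tumours, against 11.65 and 8.15 in Notch-inactivated tumours, and its spread between arrays kept it from being called (adjusted p = 0.123). Klk1, the third goblet gene called (-0.94, adjusted p = 0.0445), lost its call when any of the 4 arrays was left out. Of 3 enteroendocrine genes Cadps, which primes dense-core vesicles for release, fell: it had 5.67 and 5.26 in Notch-activated tumours, against 10.13 and 11.27 in Notch-inactivated tumours, at least 31.3-fold lower. The hormone-cell genes Nkx2-2 (-0.40) and Scg2 (-0.15) were not called and lay at background on all 6 tumour arrays. None of 4 tuft cell genes was called, among them Dclk1 (0.31, adjusted p = 0.46) and Trpm5 (-0.05, adjusted p = 0.95).

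**Figure D1:**
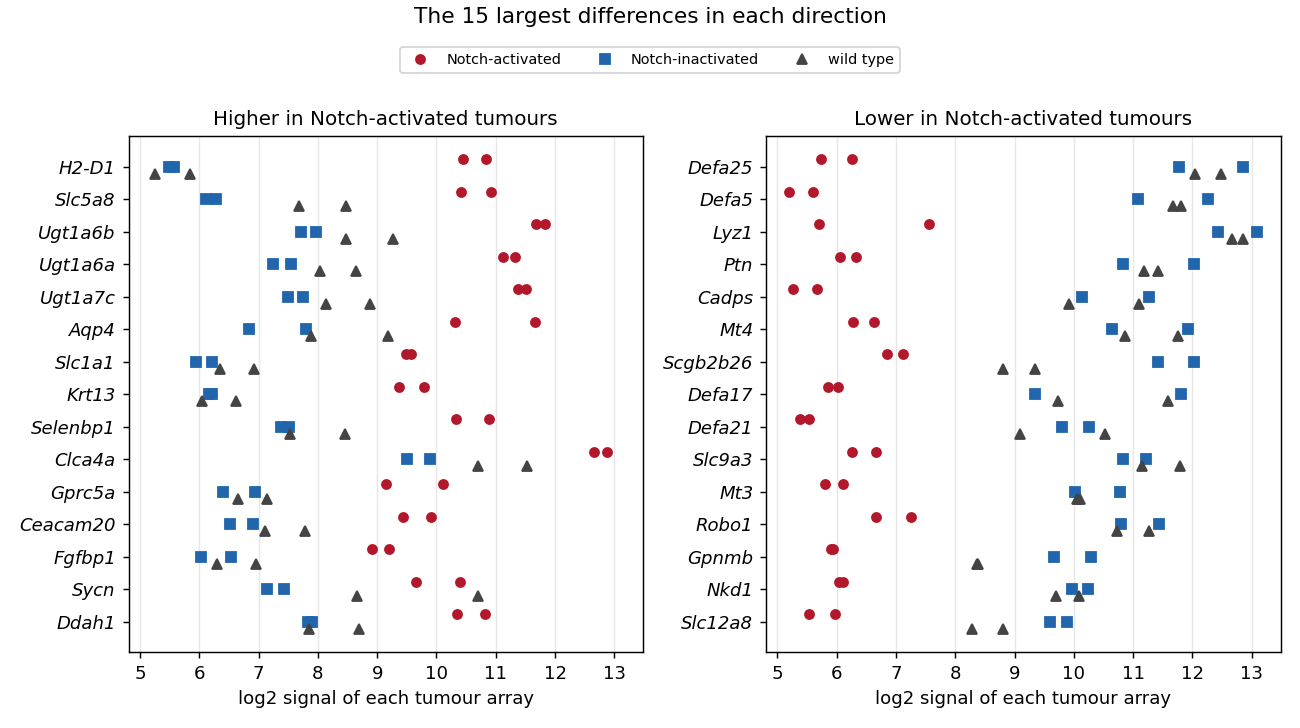
Log2 signal of each tumour array for the 15 named genes with the largest positive (left) and the 15 with the largest negative (right) difference, with circles for Notch-activated, squares for Notch-inactivated and triangles for wild type tumours. For Lyz1 the Notch-activated arrays are at 5.70 and 7.56, and the wild type arrays (12.85 and 12.66) lie between the Notch-inactivated ones.

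Genes of absorptive and colonic surface epithelium were the counterpart. Among 17 measured genes of the colonic surface list 9 rose and 1 fell, with a median of 1.33. Slc5a8, which carries butyrate and other short fatty acids into colon cells, had 10.92 and 10.41 in Notch-activated tumours, against 6.28 and 6.12 in Notch-inactivated and 7.69 and 8.47 in wild type tumours (difference 4.46, SE 0.29, adjusted p = 1.04e-05). Its wild type arrays lay between the other groups, touching neither. Aqp4, a water channel of the basolateral membrane, had 11.65 and 10.31 in Notch-activated tumours, against 7.79 and 6.83 in Notch-inactivated tumours (difference 3.67, SE 0.52, adjusted p = 7.45e-04). Selenbp1, a selenium-binding protein of mature surface cells, had 10.89 and 10.32 in Notch-activated tumours, against 7.50 and 7.37 in Notch-inactivated tumours (difference 3.17, SE 0.27). Sycn (2.75), Mettl7b (1.97), Fa2h (1.95), Saa1 (1.37), Slc9a2 (0.98) and Hoxd13 (0.43) were called higher as well. Saa1 and Hoxd13 each lost the call in 3 of the 4 fits without an array, and Slc9a2 in 2. Slc9a3, a sodium-proton exchanger of the brush border, went the other way: it had 6.66 and 6.26 in Notch-activated tumours, against 10.83 and 11.21 in Notch-inactivated and 11.80 and 11.15 in wild type tumours (difference -4.56, SE 0.50). The count of higher genes was 5 without replicate 2 of the Notch-inactivated tumours and 7 without any other of the 4 arrays. Sycn lost its call without replicate 2 of either Notch group (adjusted p = 0.0811 without the activated and 0.0722 without the inactivated one).

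Enterocyte genes rose in 4 of 9 cases and fell in 0 (median 0.32). Slc5a1, the sodium-glucose cotransporter, had 9.16 and 8.85 in Notch-activated tumours, against 8.03 and 7.49 in Notch-inactivated tumours (difference 1.25, SE 0.19). Mep1b, a brush border protease, rose by 0.96. Apoa1 (0.32, adjusted p = 0.0496) lost its call without any of the 4 arrays. Other surface transporters and enzymes stood among the largest differences of the contrast. Slc1a1, a glutamate transporter, had 9.57 and 9.49 in Notch-activated tumours, against 6.21 and 5.95 in Notch-inactivated tumours (difference 3.45, SE 0.31). Clca4a had 12.88 and 12.66 in Notch-activated tumours, against 9.89 and 9.50 in Notch-inactivated and 10.69 and 11.52 in wild type tumours (difference 3.08, SE 0.25). Ceacam20, a brush border adhesion protein, differed by 2.96, Ddah1, which degrades methylated arginine, by 2.72 and Fgfbp1, which releases fibroblast growth factors from the matrix, by 2.77. Gprc5a differed by 2.97 (adjusted p = 0.0208) and lost its call without replicate 1 of the Notch-activated tumours (adjusted p = 0.133) and without either replicate of the Notch-inactivated ones (0.0991 and 0.0629).

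Several detoxifying enzymes rose. Of 14 measured genes of the xenobiotic metabolism list, 7 rose, 1 fell and 6 were not called (median 0.69). The Ugt1a genes, which attach glucuronic acid to drugs and bilirubin, led them. Ugt1a6a had 11.33 and 11.13 in Notch-activated tumours, against 7.54 and 7.24 in Notch-inactivated and 8.04 and 8.65 in wild type tumours (difference 3.84, SE 0.19, adjusted p = 2.54e-06). Ugt1a6b (3.91) and Ugt1a7c (3.82) differed by about as much, but transcripts of this locus share their last exons, so the probes may read the same RNA, and another kept probe of Ugt1a6b differed by 0.33. Gsta2, a glutathione transferase, had 8.57 and 8.03 in Notch-activated tumours, against 6.47 and 6.24 in Notch-inactivated tumours (difference 1.95, SE 0.22). Gsta1 (1.86) is a near-identical copy, and Gstm2 (1.65) rose too. Gstp1 (0.62) lost its call without replicate 2 of either Notch group. Abcc2, a pump for conjugated compounds, fell, with 5.85 and 5.73 in Notch-activated tumours, against 7.69 and 7.89 in Notch-inactivated tumours (difference -2.0, SE 0.15).

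Most of the Wnt pathway targets and feedback genes that could be read were lower in Notch-activated tumours. Of 13 measured genes, out of 36 in the list, 8 fell and 1 rose, with a median of -0.65. No probe could be named for Axin2, Lgr5 or Sox9, and Myc lay at background on all 12 arrays. Nkd1, a feedback inhibitor that Wnt signalling induces, had 6.03 and 6.10 in Notch-activated tumours, against 9.96 and 10.23 in Notch-inactivated and 10.09 and 9.70 in wild type tumours (difference -4.03, SE 0.14, adjusted p = 4.55e-07). Prox1, a homeobox transcription factor, had 5.85 and 6.0 in Notch-activated tumours, against 9.44 and 9.42 in Notch-inactivated and 9.33 and 9.75 in wild type tumours (difference -3.51, SE 0.14). The ligand gene Wnt6 had 5.43 and 5.29 in Notch-activated tumours, against 7.43 and 7.85 in Notch-inactivated tumours, at least 3.75-fold lower. In each of these the Notch-activated arrays stood alone and wild type overlapped or adjoined the Notch-inactivated arrays. Sox4, a transcription factor, had 8.98 and 9.70 in Notch-activated tumours, against 11.16 and 11.02 in Notch-inactivated tumours (difference -1.75, SE 0.21). Igfbp4, which binds insulin-like growth factors, fell by 1.34, and Ephb4 (-0.65) and Cldn2 (-0.49) were also called lower. Both lost their calls in 3 of the 4 fits without an array, Ephb4 keeping it without replicate 2 and Cldn2 without replicate 1 of the Notch-activated tumours. Ascl2, the transcription factor of crypt stem cells, differed by -0.85 (adjusted p = 0.00666) and lost its call without replicate 1 of the Notch-activated tumours (adjusted p = 0.061). Ccnd1, cyclin D1, differed by 0.61 (adjusted p = 0.0367), and this call, the only higher one of the list, was lost without any of the 4 arrays (adjusted p between 0.0603 and 0.196). Cd44 (0.38, adjusted p = 0.17), Ephb2 (0.09, adjusted p = 0.783), Nkd2 (-0.20) and Spp1 (-0.04) were not called. In normal tissue the mean signal of the list was 6.98 and 6.94 in Notch-activated mice, 7.03 and 7.31 in Notch-inactivated mice and 6.91 and 7.0 in wild type mice. In tumours it was 8.04 and 8.20 in Notch-activated, against 9.24 and 9.17 in Notch-inactivated and 9.03 and 9.17 in wild type mice. The Notch-activated tumours thus lay between normal tissue and the other tumours on this list.

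The stem cell genes that could be read did not move one way. Of 9 measured, out of 25 in the list, 2 rose and 3 fell (median -0.15). No probe could be named for the stem cell markers Lgr5 and Olfm4. Soat1, which esterifies cholesterol, rose by 1.65 (SE 0.19), while Igfbp4 and Ascl2 were lower. Prom1 (-0.48, adjusted p = 0.0429) lost its call without any of the 4 arrays, and the number of lower genes was 1 without replicate 1 of the Notch-activated tumours. Lrig1, a feedback regulator of growth factor receptors, was 0.97 higher (adjusted p = 0.0431) and was not called without replicate 2 of the Notch-inactivated tumours (0.52, adjusted p = 0.313) or without either Notch-activated replicate.

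Few cell division genes were called. Of 19 genes of DNA replication and mitosis, 0 rose and 1 fell (median 0.01). Mki67, the nuclear antigen of cycling cells, had 9.70 and 9.33 in Notch-activated tumours, against 9.66 and 9.22 in Notch-inactivated and 9.10 and 9.54 in wild type tumours (adjusted p = 0.871). The groups overlapped on this gene. Rfc3, a subunit of the clamp loader of DNA replication, was the member that fell, by 0.69 (SE 0.11). Among 7 cell cycle inhibitors and p53 targets, 3 rose and 0 fell (median 0.38). Klf4, a transcription factor of mature surface cells that restrains division, had 9.98 and 9.31 in Notch-activated tumours, against 8.43 and 8.21 in Notch-inactivated tumours (difference 1.33, SE 0.21). Klf6 rose by 0.92 and Cdkn1a, the p21 inhibitor of cyclin-dependent kinases, by 0.71 (SE 0.14, adjusted p = 0.00604).

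**Figure D2:**
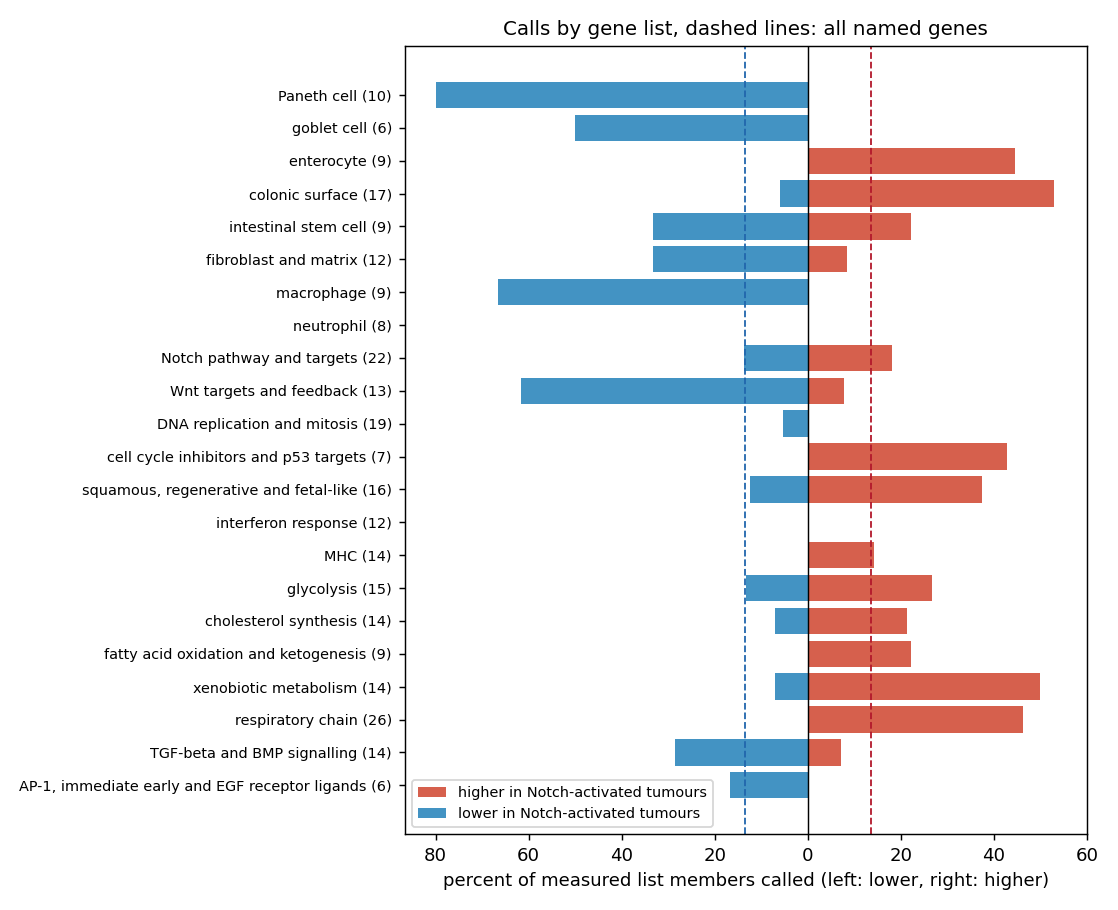
Percent of the measured members of each gene list that were called lower (blue, to the left) or higher (red, to the right) in Notch-activated than in Notch-inactivated tumours, for lists with at least 6 measured genes (number in brackets). The dashed lines give the shares over all named genes, 13.4% lower and 13.5% higher, and the Paneth list reaches 80% lower.

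Some keratins and other genes of stratified and regenerating epithelium rose. Of 16 measured genes of that list 6 rose, 2 fell and 8 were not called (median 0.13). Krt13, a keratin of stratified mucosa, had 9.37 and 9.78 in Notch-activated tumours, against 6.21 and 6.17 in Notch-inactivated and 6.04 and 6.61 in wild type tumours (difference 3.39, SE 0.29, adjusted p = 4.07e-05). Krt6a, a keratin of wounded epidermis, had 8.53 and 8.76 in Notch-activated tumours, against 6.37 and 5.94 in Notch-inactivated tumours (difference 2.50, SE 0.28). Other kept probes of Krt6a differed by as little as 0.65. Krt6b (1.37), Sprr2d (1.29), Anxa1 (1.18), an annexin that limits inflammation, and Dsg3 (0.88), a desmosome cadherin, rose as well. Mt4, a metallothionein of stratified epithelium, was among the 2 that fell, with 6.28 and 6.63 in Notch-activated tumours, against 10.65 and 11.93 in Notch-inactivated and 11.76 and 10.86 in wild type tumours (difference -4.84, SE 0.38). Its neighbour in the family Mt3, known from brain, had 5.80 and 6.10 in Notch-activated tumours, against 10.02 and 10.78 in Notch-inactivated tumours (difference -4.45, SE 0.22). Krt15 differed by -0.50 and lost its call without any of the 4 arrays but replicate 2 of the Notch-activated tumours (adjusted p up to 0.275).

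Several signalling genes belonged to the largest decreases. Ptn, pleiotrophin, a heparin-binding growth factor, had 6.05 and 6.33 in Notch-activated tumours, against 10.83 and 12.02 in Notch-inactivated and 11.42 and 11.18 in wild type tumours (difference -5.24, SE 0.29, adjusted p = 5.49e-06). Robo1, the receptor for Slit guidance proteins, had 6.67 and 7.25 in Notch-activated tumours, against 10.79 and 11.44 in Notch-inactivated tumours (difference -4.16, SE 0.27). Gpnmb, a membrane glycoprotein, had 5.90 and 5.93 in Notch-activated tumours, against 10.29 and 9.66 in Notch-inactivated and 8.37 and 8.38 in wild type tumours (difference -4.06, SE 0.36). Of 14 measured genes of TGF-beta and BMP signalling, 1 rose and 4 fell (median -0.10), and 2 were lower without replicate 1 of the Notch-activated or replicate 2 of the Notch-inactivated tumours. Id3, an inhibitor of basic helix-loop-helix factors that BMP signalling induces, had 7.63 and 7.47 in Notch-activated tumours, against 9.93 and 10.25 in Notch-inactivated tumours (difference -2.54, SE 0.13). Bmp1, a protease that matures collagen, fell by 1.12, while Smad4, the shared mediator, rose by 0.84. Tgfb2 (-0.40) was a call lost without those arrays. The receptor Tgfbr1 differed by -0.48 (adjusted p = 0.0472), but its other kept probe by 0.10, and the mean of both by -0.19 (adjusted p = 0.219), and the call was lost without any of the 4 arrays.

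The genes of the Notch pathway that could be read did not move one way. Of 22 measured, out of 52 in the list, 4 rose and 3 fell (median 0.04), shares of the same order as those over all named genes. No probe could be named for Notch1, Notch2, Notch3, Hes1, Hes5, Hey1, Heyl or Nrarp. The receptor gene of the transgene and these target genes therefore gave no value here. Among receptors, Notch4 had 10.32 and 10.79 in Notch-activated tumours, against 8.86 and 8.75 in Notch-inactivated and 8.46 and 8.64 in wild type tumours (difference 1.75, SE 0.17, adjusted p = 7.88e-05). Of the proteases that free the receptor, Aph1a rose by 0.68 (SE 0.14), while Psenen (0.06), Ncstn (-0.18) and Adam17 (0.35) were not called. On the ligand side Mib1 was higher, as given above. It counts among the 4 that rose, although it is the gene deleted by design in the Notch-inactivated group. Neurl1a, another ubiquitin ligase for ligands, was lower, with 7.03 and 7.51 in Notch-activated tumours, against 9.30 and 8.94 in Notch-inactivated tumours (difference -1.85, SE 0.23). The ligand Dll4 was near background and did not pass (-0.18, adjusted p = 0.351). In the nucleus, Maml2, a coactivator, fell by 1.22 (SE 0.14), and Rbpj (0.01, adjusted p = 0.958), Snw1 (0.03) and Spen (0.07) were not called. Lfng, a glycosyltransferase that tunes the receptors, fell by 0.43 (adjusted p = 0.0128) and lost its call without replicate 1 of the Notch-activated tumours or replicate 2 of the Notch-inactivated ones. Atoh1, the transcription factor of secretory progenitors, lay at background on all 12 arrays, with 5.38 and 5.13 in Notch-activated tumours, against 5.58 and 5.44 in Notch-inactivated tumours, so these arrays give no level for it.

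H2-D1, an MHC class I heavy chain that presents peptides to T cells, had the largest positive difference of any named gene. It had 10.83 and 10.44 in Notch-activated tumours, against 5.57 and 5.49 in Notch-inactivated and 5.25 and 5.85 in wild type tumours, which makes it at least 31.5-fold higher. In normal tissue it had 10.97 and 10.94 in Notch-activated mice, against 5.26 and 5.55 in Notch-inactivated and 5.26 and 5.20 in wild type mice. Its signal thus followed the genotype in both tissues. The rest of the MHC list did not go with it: H2-K1 (-0.41, adjusted p = 0.087) and B2m (-0.29, adjusted p = 0.373) were not called, and of 14 members only H2-D1 and H2-T10 (0.46) rose. The call of H2-T10 was lost without replicate 1 of the Notch-activated or replicate 2 of the Notch-inactivated tumours. Class I genes differ in sequence between mouse strains, the labels do not give the strain background of each genotype, and no value here shows it. None of 12 interferon response genes was called, and their differences ran between -1.33 (Cxcl9) and 0.81 (Oas1g), with a median of -0.09.

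Genes of the respiratory chain rose in part. Of 26 respiratory chain genes 12 rose and 0 fell, with a median of 0.31. Cox6a1, a subunit of cytochrome oxidase, had 12.87 and 12.91 in Notch-activated tumours, against 12.17 and 12.09 in Notch-inactivated tumours (difference 0.76, SE 0.11, adjusted p = 8.27e-04). Cox7b (0.78), Atp5k (0.71) of the ATP synthase and Ndufb9 (0.59) of complex I rose too. These differences were small, and only 4 of the 26 were called without replicate 2 of the Notch-inactivated tumours, 5 without replicate 1 of the Notch-activated tumours and 8 without its replicate 2. In ketone metabolism Bdh1, which interconverts ketone bodies, rose by 1.43 (SE 0.20). Of 15 glycolysis genes 4 rose and 2 fell, and of these 1 or 2 were still higher when an array was left out. Eno1, an enolase, had 11.34 and 10.97 in Notch-activated tumours, against 10.33 and 10.10 in Notch-inactivated tumours (difference 0.94, SE 0.14), while Ldhb, a lactate dehydrogenase, fell by 1.16. Of 14 cholesterol genes 3 rose and 1 fell, and the number higher was 1 without replicate 2 of either Notch group.

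Non-epithelial markers were also lower in part. Of 9 macrophage genes 6 fell and 0 rose (median -0.71), and their mean signal was 8.37 and 8.35 in Notch-activated tumours, against 9.20 and 9.19 in Notch-inactivated and 8.73 and 9.07 in wild type tumours. Lyz2, the macrophage lysozyme, had 9.75 and 9.33 in Notch-activated tumours, against 11.61 and 11.26 in Notch-inactivated tumours (difference -1.89, SE 0.22), though it is close in sequence to Lyz1. Apoe, which carries lipids, fell by 1.46 and C1qa, a chain of complement C1q, by 0.98. Of 12 fibroblast and matrix genes 4 fell and 1 rose (median -0.56). Mgp, matrix Gla protein, had 9.25 and 9.46 in Notch-activated tumours, against 10.99 and 12.10 in Notch-inactivated tumours (difference -2.19, SE 0.30). Leaving out an array put the number of lower fibroblast genes between 2 and 6: it was 2 without replicate 1 of the Notch-activated or replicate 2 of the Notch-inactivated tumours. Fbln1 differed by -1.09, and its other kept probe by -0.06. None of 8 neutrophil genes (median -0.34) and none of 3 mast cell genes was called, and of 161 immunoglobulin segments 4 rose and 5 fell. The part of cell composition in the differences above was not tested.

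**Figure D3:**
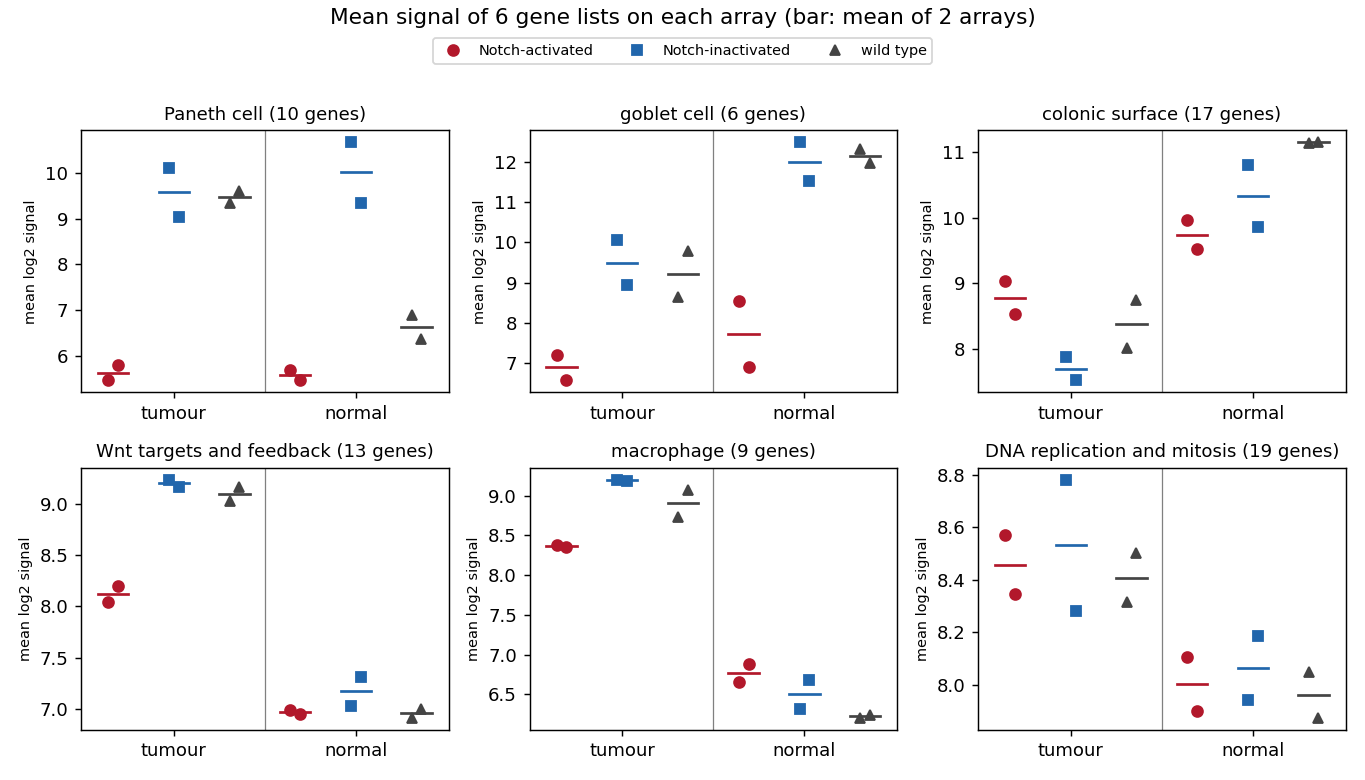
Mean log2 signal of 6 gene lists on each of the 12 arrays, tumours left and normal tissue right, by genotype, with a bar at the mean of the 2 arrays. In tumours the Paneth list was at 5.46 and 5.80 in Notch-activated, against 10.13 and 9.05 in Notch-inactivated and 9.35 and 9.61 in wild type mice, and the replication list overlapped between all 3.

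Wild type tumours lay close to the Notch-inactivated end. For each of the 4949 called features the place of the wild type mean was expressed on a scale from 0 (Notch-inactivated mean) to 1 (Notch-activated mean). The median was 0.07, with quartiles of -0.06 and 0.22. Wild type was nearer to the Notch-inactivated tumours for 4680 features (94.6%) and nearer to the Notch-activated ones for 269 (5.44%). With either wild type array taken alone, 93.3% and 91.1% lay nearer the inactivated end. For 1724 features wild type lay beyond the Notch-inactivated end and for 24 beyond the Notch-activated end. Tested against the midpoint of the Notch groups, wild type differed for 1311 features (6.11%), lying above it for 649 (3.02%) and below it for 662 (3.09%), and of the 1161 of these that were also called between the Notch groups 1150 lay towards the inactivated end and 11 towards the activated end. That test depends on the arrays: 257 features were called without replicate 1 of the wild type tumours, 688 without replicate 1 of the Notch-inactivated tumours, 707 and 856 without replicate 1 or 2 of the Notch-activated tumours, and 709 when only the tumour arrays were fitted. Scaled by cyclic loess, 738 features were above the midpoint and 496 below, which is 59.8% above the midpoint, against 49.5% with the deposited values.

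The same asymmetry appears when each Notch group is set against wild type tumours, comparisons that share the wild type arrays. Notch-activated tumours differed from wild type for 4888 features (22.8%), and Notch-inactivated tumours for 48 (0.224%), with 991 at an unadjusted p under 0.05. The count of 4888 fell to 2980 without replicate 1 of the Notch-activated tumours and to 2957 without replicate 1 of the wild type tumours. The count of 48 fell to 18 without replicate 2 of the Notch-inactivated tumours, to 23 without replicate 2 of the wild type tumours and to 8 when only tumour arrays were fitted. Across features, arrays of Notch-inactivated and wild type tumours correlated at 0.983 to 0.989, as high as the replicates of either group (0.986 and 0.987), and arrays of Notch-activated and wild type tumours at 0.933 to 0.944. Of the called features 3977 (80.4%) differed from wild type in Notch-activated tumours only, 15 in Notch-inactivated tumours only, 18 in both and 939 in neither.

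**Figure D4:**
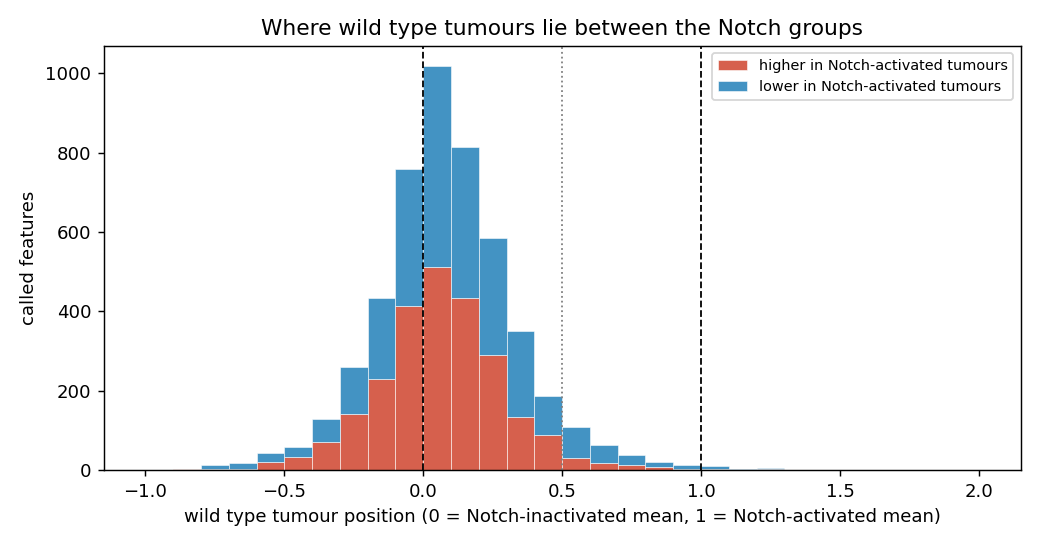
Number of called features by the position of the wild type tumour mean between the Notch-inactivated (0) and Notch-activated (1) tumour means, stacked by direction, with a dotted line at the midpoint. The peak lies near 0 (median 0.07), and 6 features outside the plotted range are left out.

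Single genes showed the range of positions. Prox1 (-0.03), Lyz1 (0.00), Nkd1 (0.05), Ptn (0.02) and Krt13 (0.04) had wild type at the inactivated end. Slc5a8 (0.42), Clca4a (0.46), Gpnmb (0.39) and Scgb2b26 (0.56) had it in between. Scgb2b26, a secretoglobin, had 6.84 and 7.12 in Notch-activated tumours, against 11.42 and 12.03 in Notch-inactivated and 8.81 and 9.34 in wild type tumours (difference -4.75, SE 0.44, adjusted p = 6.42e-05). A few genes had wild type at the activated end or outside the range of both Notch groups. Reg1, a secreted lectin, had 7.69 and 7.75 in Notch-activated tumours, against 6.15 and 6.24 in Notch-inactivated and 7.83 and 7.37 in wild type tumours (position 0.92), and it was 1 of 7 named genes (0.14%) called between Notch-inactivated and wild type tumours (difference -1.40, adjusted p = 0.015). Dlk1, a non-canonical Notch ligand singled out after its values were seen, had 6.17 and 6.09 in Notch-activated tumours, against 8.61 and 9.09 in Notch-inactivated and 6.48 and 6.14 in wild type tumours (position 0.93). Its difference between the Notch groups was -2.72 (adjusted p = 0.00683), and the adjusted p was 0.052 without replicate 2 of the Notch-inactivated tumours. Qsox1, which forms disulfide bonds in secreted proteins, had 5.90 and 5.92 in Notch-activated tumours, against 7.12 and 7.23 in Notch-inactivated and 6.29 and 6.45 in wild type tumours, and all 3 groups were apart. Shoc2, a scaffold of Ras signalling, had 9.29 and 9.21 in Notch-activated tumours, against 8.53 and 8.73 in Notch-inactivated and 7.32 and 7.32 in wild type tumours, so wild type lay outside the range of the other groups, at -2.12. A second probe of Shoc2 differed by 0.01 between the Notch groups. The remaining 4 named genes called between Notch-inactivated and wild type tumours were Hbb-b2, Slc5a8, A330102I10Rik and Mrps10, all lower in Notch-inactivated tumours.

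Notch-activated tumours also stood nearer to normal tissue. Of the 2465 higher features, 1755 (71.2%) had all 6 normal arrays above both wild type tumour arrays, which held for 30.1% of all features. Of the 2484 lower features, 1845 (74.3%) had all 6 normal arrays below both wild type tumour arrays, against 27.9% of all features. The opposite pattern was seen in 108 of the higher and 27 of the lower features. Across features the difference between the Notch groups of tumours correlated at r = 0.57 with wild type normal tissue minus wild type tumours, 2 quantities that share no array. Tumour and normal arrays of the same genotype correlated at 0.952 to 0.962 in Notch-activated mice. In Notch-inactivated mice the range was 0.870 to 0.896 and in wild type mice 0.855 to 0.874. Against wild type normal arrays, Notch-activated tumours correlated at 0.915 to 0.924 and Notch-inactivated tumours at 0.856 to 0.875. Features are not independent replicates, so these correlations describe the arrays and carry no p.

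Part of the contrast was present in normal tissue and part was not. Between Notch-activated and Notch-inactivated normal tissue 2076 features were called (9.68%), or 955 without replicate 2 of the Notch-activated normal tissue. Of these, 995 were also called in tumours, 884 in the same direction, which is 17.9% of the tumour calls and 42.6% of the normal tissue calls, and 111 in the opposite one. The differences of the 2 tissues correlated at r = 0.48 across features and share no array. The difference between tissues was itself called for 2725 features (12.7%), or 1496 without replicate 2 of the Notch-inactivated tumours, 1540 without replicate 1 of the Notch-activated tumours and 1602 without replicate 2 of the Notch-activated normal tissue. Of the features called in tumours 2080 were called here too. In 1990 of them the tumour minus normal value had the sign of the tumour difference. These include features with opposite differences in the tissues, and the sizes of the effects were not compared.

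Paneth cell genes differed in both tissues. Defa5 in normal tissue had 5.52 and 5.56 in Notch-activated mice, against 11.76 and 10.33 in Notch-inactivated and 5.39 and 5.50 in wild type mice. Its difference between the Notch groups was -5.51 in normal tissue and -6.28 in tumours, and that between tissues was not called (adjusted p = 0.49). Wild type therefore stood with Notch-inactivated mice in tumours and with Notch-activated mice in normal tissue. Scgb2b26 (-4.66 in normal tissue) and H2-D1 (5.55) likewise had about the same difference in both tissues. The goblet genes Slc12a8 (-5.83) and Bcas1 (-5.80) differed more in normal tissue than in tumours (adjusted p of the tissue difference 0.00707 and 0.0278).

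The Wnt and colonic surface genes behaved otherwise. Nkd1 in normal tissue had 5.32 and 5.29 in Notch-activated mice, against 5.16 and 5.34 in Notch-inactivated and 5.24 and 5.26 in wild type mice, all at background, and Prox1 (-0.39) and Ptn (-0.13) were not called there. Aqp4 in normal tissue had 11.49 and 11.41 in Notch-activated mice, against 11.96 and 11.16 in Notch-inactivated and 11.91 and 11.61 in wild type mice, near its level in the Notch-activated tumours. Mettl7b, a methyltransferase-like protein, was opposite in the tissues: it was 1.97 higher in Notch-activated tumours and 1.58 lower in Notch-activated normal tissue (-1.58, adjusted p = 0.028). Over all named genes this difference between tissues was called in 14.4%, with 7.72% more positive in tumours and 6.67% more negative, and over all features with 6.52% and 6.18%. Of 13 Wnt genes 4 had a called difference between tissues, all more negative in tumours, and of 17 colonic surface genes 8 did, 7 of them more positive in tumours.

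**Figure D5:**
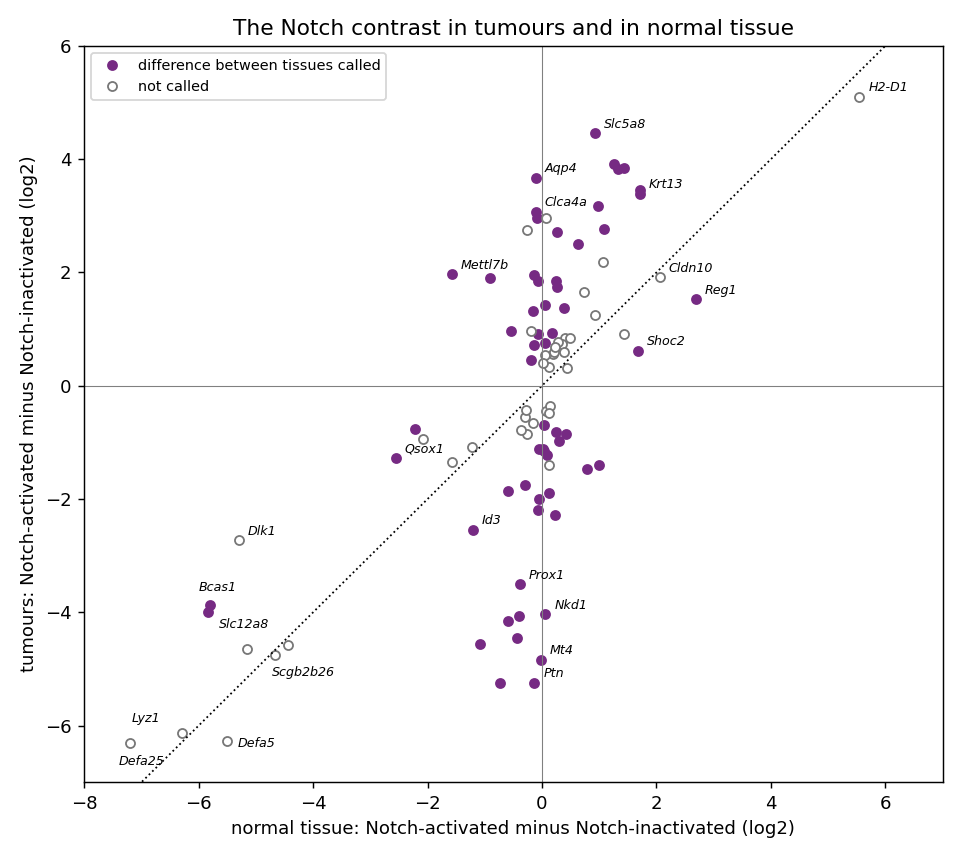
Difference between Notch-activated and Notch-inactivated mice in tumours (vertical) and normal tissue (horizontal), log2, for the genes chosen by the naming rule that were called in tumours. Called genes chosen outside that rule after their values were seen, such as Dlk1, Reg1, Qsox1 and Shoc2, are shown too. Points on the dotted line differ equally in both tissues, filled points had a called difference between tissues, and Ptn (-5.24 in tumours, -0.13 in normal tissue) lies far below the line.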

How the data were processed

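Total RNA of 12 tissue samples was hybridised as biotin-labelled cRNA to Illumina bead arrays, per the labels' protocols. The deposited table gives 1 log2 value per probe and array. Its columns hold the same sorted values within 0.000543 (median 5.54, maximum 14.2), so they read as quantile normalized by the authors, while log2 is inferred from the range, since neither the log base nor any background correction is stated in the labels or headers. A further table of signals was not used, because its 24 value columns carry names that match no sample's labels.

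Of 46628 probes 550 controls were left out. A probe was kept when above the background limit (95th percentile of 53 probes for foreign sequences, 5.64 to 5.91) on at least 2 arrays, which left 22142. Gene names are an inference: the digits of a probe identifier were taken to be a gene number of NCBI and matched to RefSeq (GRCm38.p6). It matched for 81.1% of identifiers with 1 leading zero and 84.8% with 2, and the second class, less firm, gave the names of H2-D1, Defa25, Slc5a8, Aqp4, Krt13, Ptn, Nkd1, Wnt6, Sox4, Lyz2, Mib1 and Apc. With the brightest probe per gene, 5011 named genes and 16446 unnamed probes were tested.

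limma 3.58.1 (R 4.3.3) fitted 6 group means over all 12 arrays (lmFit, eBayes; 6 residual and 3.75 prior degrees of freedom), and p-values were Benjamini-Hochberg adjusted within each contrast. The number of arrays limits the precision. The script was tested on simulated data. The design had allowed for scanner signals, and the normalized values took their place. Genes are named by a rule: the 15 largest called differences in each direction without overlap, up to 4 called members of each gene list, the Notch pathway genes, the 6 with wild type farthest to each side of the midpoint, and the 6 largest tissue differences each way. The comparison, the gene lists and this rule were chosen with earlier results of these data known. Further members of the lists are given to complete a count. Dlk1 and the named genes called between Notch-inactivated and wild type tumours (Reg1, Qsox1 and others) fall outside the rule and were chosen after their values were seen. Alternatives were other filters, cyclic loess, array weights, an intensity trend, the mean over probes, fewer arrays, a replicate block and leaving out each array. Promoters are from RefSeq (GRCm38.p6). A few members of the gene lists are counted but not reported here by name.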

Additional observations from a re-analysis of the deposited data

Results flagged for a closer look

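For 12 genes the difference between Notch-activated and Notch-inactivated mice was itself different in tumours and in normal tissue, by the interaction term of the limma fit. These are the 6 largest such differences in each direction among the named genes called in tumours. In Ptn the tumour minus normal value of that difference was -5.11, in Mt4 -4.81, in Cadps -4.51, in Nkd1 -4.09, in Mt3 -4.01 and in Gpnmb -3.66. In Aqp4 it was 3.78 (adjusted p = 0.0098), in Mettl7b 3.55, in Slc5a8 3.54, in Clca4a 3.19, in Ceacam20 3.05 and in Bglap3 2.81. In normal tissue Ptn and Nkd1 were at background on all 6 arrays and Cadps, Mt3 and Gpnmb on 5 of 6, while Mt4 was above it on 4, with signals of 5.61 to 6.16. Clca4a had 13.38 and 13.37 in Notch-activated normal tissue, against 13.55 and 13.42 in Notch-inactivated and 12.52 and 12.10 in wild type normal tissue.

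A probe for the neomycin resistance gene, which enters none of the comparisons, had signals of 5.96 and 6.02 (mean 5.99) in Notch-activated tumours, against 5.58 and 5.53 in Notch-inactivated and 5.64 and 5.71 in wild type tumours. In Notch-activated normal tissue it had 5.47 and 5.52. Groups of 2 arrays are too small to look for single arrays that stand apart.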

How the results depend on the processing

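Of the named genes called between the Notch groups of tumours, 101 were picked by the naming rule or after their values were seen. Of these 101, 78 kept their call under every alternative and 23 lost it under at least 1. Of the 23, 12 lost it under an alternative other than leaving out an array, and 0 of the 101 changed sign. They include the largest differences, so they do not stand for all called genes. Leaving out 1 array at a time gave 2903 to 3777 called features between Notch-activated and Notch-inactivated tumours (4949 with all arrays), 257 to 1222 between wild type and the midpoint (1311), 2957 to 3864 between Notch-activated and wild type tumours (4888), 18 to 38 between Notch-inactivated and wild type tumours (48), 955 to 1609 between the normal tissues (2076) and 1496 to 2309 for the tissue difference (2725); a group left with 1 array is assumed to vary like the others. With only the tumour arrays fitted, 709 features differed from the midpoint and 8 between Notch-inactivated and wild type tumours. Fewer arrays mean fewer residual degrees of freedom. The remaining alternatives kept each count within 1.5 times: for the Notch groups of tumours they gave 4686 without the filter on dim probes, 4784 with cyclic loess and 6015 with array weights. Replicate numbers were not treated as pairs in the main fit, because not every pair of groups correlated above 0.1 in its replicate differences. That limit cannot show that the samples were unpaired. The replicate differences of Notch-activated and Notch-inactivated tumours correlated at r = 0.01 and those of Notch-inactivated and wild type tumours at -0.39. Those of Notch-inactivated and wild type normal tissue correlated at 0.35, the highest of the pairs. With the replicate number as a block 4821 features were called between the Notch groups, and with the numbers of the wild type tumours crossed, a pairing chosen after seeing the data, 4984. Signals near background limit the folds of genes silent in 1 group.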

Other observations

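Gene families defined by their symbols, and chosen after the data had been seen, give further detail of the tumour contrast between Notch-activated and Notch-inactivated mice, again beside 13.5% of named genes higher and 13.4% lower. Of 87 solute carrier genes 24 rose and 9 fell. Slc5a9, a sugar transporter, had 9.12 and 8.47 in Notch-activated tumours, against 6.5 and 6.28 in Notch-inactivated and 6.54 and 7.27 in wild type tumours (difference 2.40, SE 0.25), while Slc38a4, an amino acid transporter, had 5.59 and 5.15 in Notch-activated tumours, against 8.29 and 7.53 in Notch-inactivated tumours and was at least 4.53-fold lower. Of 9 glutathione transferase genes 6 rose and 0 fell. Of 33 mitochondrial ribosomal protein genes 9 rose and 0 fell, with differences of 0.31 to 0.69, and of 70 cytosolic ribosomal protein genes 2 rose and 0 fell. Of the mitochondrial ones, Mrpl4, Mrpl42, Mrps11, Mrps24 and Mrps26 lost their calls in at least 2 of the 4 fits without an array. Of 105 genes with a symbol beginning in Zfp, most of them zinc finger proteins, 1 rose and 20 fell. Most of these 20, though not Zfp184, lost their calls in fits without an array, and Zfp61, Zfp638, Zfp93 and Zfp94 in all 4 of them. Zfp184 had 5.85 and 6.04 in Notch-activated tumours, against 7.59 and 7.43 in Notch-inactivated and 7.52 and 7.51 in wild type tumours (difference -1.57, SE 0.12).

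Sox transcription factor genes fell in 3 of 6 cases. Sox21 had 7.35 and 8.25 in Notch-activated tumours, against 10.82 and 10.97 in Notch-inactivated and 10.60 and 10.70 in wild type tumours (difference -3.10, SE 0.28), and Sox11 had 5.39 on both Notch-activated arrays, against 6.89 and 7.27 in Notch-inactivated tumours. Il7, a cytokine that lymphocytes need, had 8.56 and 8.31 in Notch-activated tumours, against 6.23 and 6.30 in Notch-inactivated and 6.49 and 6.69 in wild type tumours (difference 2.17, SE 0.17), and its receptor gene Il7r was 0.78 lower. Hbb-b2, a haemoglobin gene, had 7.15 and 5.62 in Notch-activated tumours, 5.94 and 6.23 in Notch-inactivated tumours, and 9.74 and 10.60 in wild type tumours. By chromosome, 50 of 139 named genes (36.0%) were called between the Notch groups on chromosome 18, which carries Mib1. On chromosome 6, which carries Rosa26, 82 of 256 (32.0%) were called, against 26.8% of all named genes. These were the highest shares of all chromosomes. Among the other autosomes the share ran from 21.6% on chromosome 17 to 30.5% on chromosome 19. A link to the altered loci was not tested.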
